A study of Mus musculus with 8 samples.

Results

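Lipid-associated macrophage genes were followed in the liver of aged obese mice, with and without a fish-oil concentrate rich in docosahexaenoic acid (DHA). The genes were Trem2, Tyrobp, Cd68, Gpnmb, Spp1, Lgals3, Cd9, Itgax, Mmp12 and Cd63. They were chosen by name, with earlier results of these data known, as genes that mark the macrophages which gather around lipid-laden cells. Each was the row of the count tables whose Ensembl identifier carries that symbol in GENCODE. All 10 were found among the 56884 genes of the tables. In the DIO + DHA group 8 of the 10 were lower than in the DIO group, where 7.28% of all tested genes were. Trem2 was at 26.2% and Cd63 at 79.4% of the DIO mean, while Spp1 and Cd9 did not pass the test. Of the 8, Itgax met the count minimum for testing only through the DIO group. General macrophage markers were lower too. Relative to the summed counts of these markers, 4 of the 10 members were lower, 3 were higher and 3 did not pass. On that scale 0.532% of all tested genes were lower and 81.1% higher.

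TREM2 is a surface receptor of macrophages and microglia that binds lipids and lipoproteins. It has no signalling tail of its own and signals through the adaptor TYROBP (DAP12), whose phosphorylated tail recruits the kinase SYK. In obese fat tissue, in fatty liver and in atherosclerotic plaques, macrophages that take up lipid switch on a shared set of genes with TREM2 at its centre. That set holds lysosomal and phagocytic proteins such as CD68, GPNMB and CD63, secreted proteins such as osteopontin, a galectin and a macrophage elastase, and surface proteins such as CD9 and CD11c.

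The animals were C57BL/6J females with diet-induced obesity (DIO), given fat-rich food (lipids made up 45% of the energy) from 2 months of age. After 4 months they were divided: the DIO group (3 mice) stayed on that diet to 18 months of age, and in the DIO + DHA group (5 mice) a concentrate with 683.4 mg of DHA and 46.7 mg of eicosapentaenoic acid (EPA) per g took the place of 15% by weight of the dietary lipids. The DIO diet received the same mix of tocopherols as the concentrate held. All mice were killed after an overnight fast, no lean control group was measured, and 1 library was made from each liver. The comparison asks how the long-term exchange of part of the dietary fat for DHA changed the hepatic transcriptome.

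The libraries held 1723800 to 5690347 counts, with DIO replicate 1 the shallowest, and all carried the same batch label. The unit of level is the CPM, 1 count per 1000000 counts of a library after TMM scaling, and a log2 fold change (Log2FC) is DIO + DHA against DIO, so that negative values are lower with DHA. A gene was tested if at least 50% of the libraries of 1 group or the other reached 5 counts, and 12412 genes passed. Hepatocyte markers took 150000 to 169000 CPM in every library, and all 19 genes of a list of general macrophage markers had counts. Skeletal muscle genes, by contrast, summed to 39.3 to 44.9 CPM in the DIO group and 1490 to 1620 CPM in the DIO + DHA group, where all 19 of them were called higher, and genes of squamous epithelium to 47.1 to 53.3 and 116 to 127 CPM. With TMM factors computed without both of these lists, the 10 members kept their calls and the Log2FC of Trem2 was −1.91, as with them. That check concerns the scaling alone. The part of muscle and squamous RNA in the members' values was not tested. In whole liver, fewer cells of a type and less RNA per cell cannot be told apart.

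The promoters of Itgax, Trem2, Mmp12 and Cd68 are shown first, because they share 1 short motif. These 4 had the largest falls, but Itgax met the count minimum only through the DIO group. A link between the motif and the size of the fall was not tested. In the window from 250 bases before to 50 bases after the canonical start of each gene, the AP-1 motif TGANTCA (AP-1 is the FOS and JUN family, active in stimulated macrophages) was searched on both strands. It was found in 5 of the 10 members (these 4 and Gpnmb), against 5.45% of the 11268 protein-coding genes tested that have such a window. The motif was chosen after the promoters had been read, so this comparison is a description only. Tyrobp, Spp1, Lgals3, Cd9 and Cd63 had no match. Each sequence below runs 5′ to 3′ from 240 bases before to 10 bases after the start in GRCm39, and the capitals mark the motif.
Trem2, chr17:48653189-48653438, plus strand: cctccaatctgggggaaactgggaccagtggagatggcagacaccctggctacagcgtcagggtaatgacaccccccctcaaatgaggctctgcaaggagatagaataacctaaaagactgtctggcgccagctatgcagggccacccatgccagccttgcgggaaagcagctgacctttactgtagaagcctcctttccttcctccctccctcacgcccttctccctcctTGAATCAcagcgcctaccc
Cd68, chr11:69557058-69557307, minus strand: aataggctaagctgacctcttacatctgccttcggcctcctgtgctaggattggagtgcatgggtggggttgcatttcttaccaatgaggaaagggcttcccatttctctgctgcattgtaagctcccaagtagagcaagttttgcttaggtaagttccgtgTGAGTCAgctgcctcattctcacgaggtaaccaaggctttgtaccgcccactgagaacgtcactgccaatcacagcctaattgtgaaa
Itgax, chr7:127728428-127728677, plus strand: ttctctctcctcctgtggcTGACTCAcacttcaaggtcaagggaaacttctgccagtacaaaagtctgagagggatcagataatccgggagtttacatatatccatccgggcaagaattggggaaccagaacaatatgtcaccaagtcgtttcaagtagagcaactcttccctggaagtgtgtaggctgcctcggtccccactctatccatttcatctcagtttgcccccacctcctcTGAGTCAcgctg
Mmp12, chr9:7347134-7347383, plus strand: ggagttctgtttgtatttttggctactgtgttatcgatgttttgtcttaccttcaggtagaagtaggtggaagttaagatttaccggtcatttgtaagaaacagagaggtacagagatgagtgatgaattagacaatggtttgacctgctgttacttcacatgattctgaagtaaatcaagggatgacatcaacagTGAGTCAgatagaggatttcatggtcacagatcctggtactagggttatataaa

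Counted from the start site, the match began at −9 in Trem2, at −78 in Cd68, at −221 and −2 in Itgax and at −44 in Mmp12. In Gpnmb it began at 35, after the canonical start but before the gene start given below. The canonical starts are those of GENCODE release 39. For several genes they differ from the gene coordinates given below, which come from the count tables (release 33). On the strand shown, the letters were TGAATCA in Trem2, TGAGTCA in Cd68 and Mmp12, TGACTCA in Gpnmb, and both of the last in Itgax. TGAGTCA and TGACTCA are the same site read from opposite strands, so only the site of Trem2 differed from the others. The E-box CACGTG, which the lysosomal and MITF family of factors can bind, was in 0 of the 10 windows and in 10.1% of all. The related CATGTG was in 4 of the 10 (Tyrobp, Spp1, Cd9 and Mmp12) and in 9.23% of all. The core GAGGAA of PU.1, the factor that directs the macrophage lineage, was in 4 of the 10 (Trem2, Tyrobp, Cd68 and Cd63) and in 27.2% of all. None of these motifs contains another. The motifs were chosen after the promoters had been read, and a match in so short a window does not show that a factor binds there.

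Trem2 (ENSMUSG00000023992.15), the lipid receptor, lies on chromosome 17 at 48653429 to 48661175 on the plus strand. It was measured at 5.61, 8.82 and 6.55 CPM in DIO replicates 1, 4 and 5. In DIO + DHA replicates 1, 2, 4, 5 and 6 it was at 2.77, 0.669, 2.14, 1.40 and 2.18 CPM. Every DIO + DHA liver was below every DIO liver, and DIO + DHA replicate 2 was the lowest of all. The mean was 6.99 ± 1.65 CPM (SD, n = 3) against 1.83 ± 0.811 CPM (SD, n = 5), or 26.2% of the DIO mean. The Log2FC was −1.91 (SE 0.30, 95% confidence interval −2.52 to −1.31, adjusted p = 1.5e-06 from the quasi-likelihood test of edgeR, adjusted after Benjamini and Hochberg, as for every adjusted p here). These values rest on 96 counts in the DIO group and 38 in the DIO + DHA group. The gene passed the test in each of 19 alternative analyses, with a Log2FC between −2.14 and −1.69.

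Tyrobp (ENSMUSG00000030579.11; chromosome 7, 30113185 to 30117010, plus strand), the adaptor through which TREM2 and several other immune receptors signal, was read far more deeply. Its level was 58.9, 52.9 and 64.5 CPM in the DIO livers and 27.1, 28.4, 27.1, 27.6 and 34.0 CPM in the DIO + DHA livers. The groups did not overlap, and DIO + DHA replicate 6 stood above the other 4 of its group. The mean was 58.8 ± 5.78 CPM (SD, n = 3) against 28.8 ± 2.94 CPM (SD, n = 5), a 2.03-fold fall (Log2FC −1.02, SE 0.11, adjusted p = 4.3e-11).

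Itgax (ENSMUSG00000030789.10; chromosome 7, 127728719 to 127749829, plus strand) encodes CD11c, the integrin that marks dendritic cells and inflammatory macrophages of obese tissue. It was at 1.12, 1.98 and 1.95 CPM in the DIO livers and at 0.594, 0.334, 0.356, 0.467 and 0.436 CPM in the DIO + DHA livers. The groups did not overlap, but each DIO + DHA value stood for 1 to 3 counts, 9 in all against 24. The gene passed the count minimum only through the DIO group, so that its difference was in part a condition of being tested. The Log2FC was −1.94 (SE 0.56, adjusted p = 0.0102), and the call was lost in 7 of 18 alternatives, among them without DIO replicate 4 or 5 (adjusted p = 0.0803 and 0.0820).

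**Figure D1:**
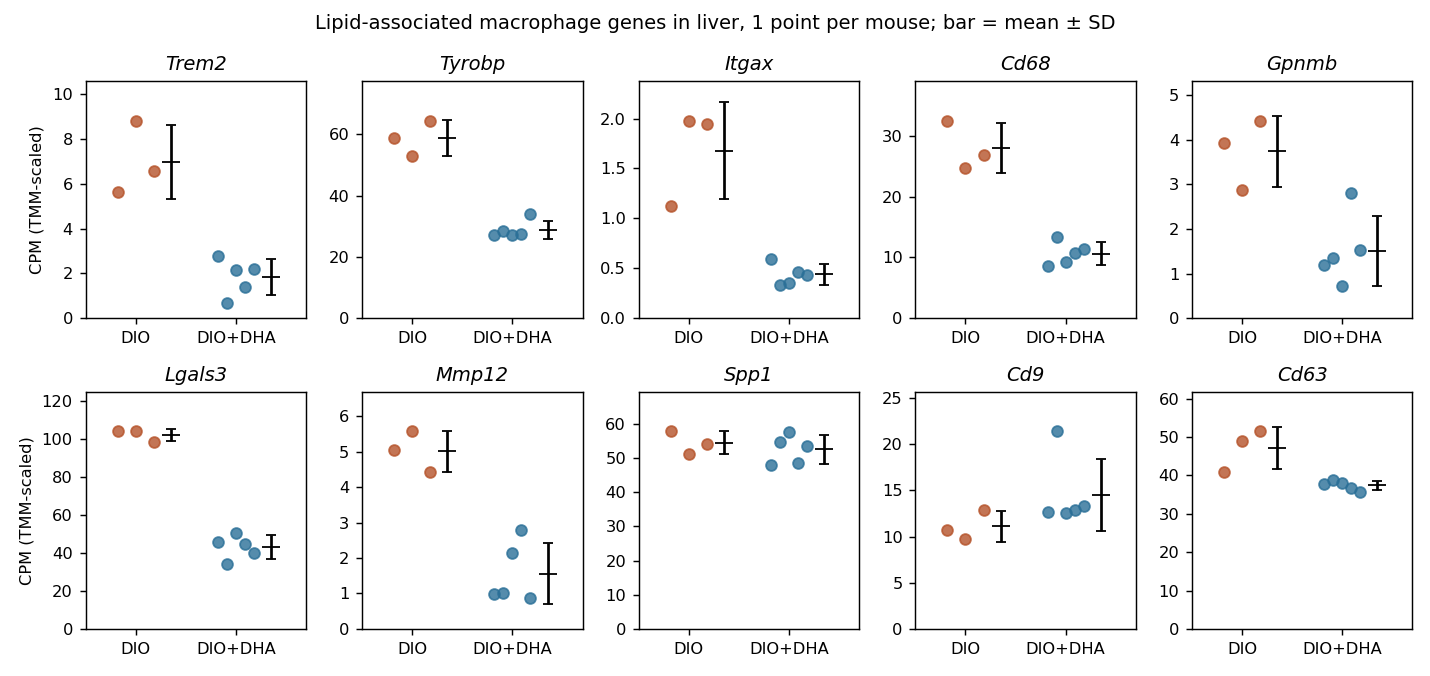
TMM-scaled CPM of the 10 genes (vertical axes, each from 0) in the 3 DIO and 5 DIO + DHA livers, 1 point per mouse, with the mean and SD beside them. In 8 panels every DIO + DHA point is below every DIO point, while for Spp1 and Cd9 the groups overlap and 1 DIO + DHA liver reached 21.4 CPM of Cd9.

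Among the lysosomal and phagocytic genes, Cd68 (ENSMUSG00000018774.14; chromosome 11, 69555039 to 69556979, minus strand), a glycoprotein of macrophage lysosomes, was at 32.5, 24.7 and 26.9 CPM in the DIO livers. It was at 8.51, 13.4, 9.26, 10.8 and 11.3 CPM in the DIO + DHA livers. No DIO + DHA liver came near the DIO range. The means were 28.0 ± 4.07 CPM (SD, n = 3) and, with DHA, 10.6 ± 1.90 CPM (SD, n = 5), with a Log2FC of −1.36 (SE 0.16, adjusted p = 3.4e-10).

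Gpnmb (ENSMUSG00000029816.11; chromosome 6, 49013480 to 49047863, plus strand), a transmembrane glycoprotein of stressed lysosomes, was sparse. It was at 3.93, 2.88 and 4.43 CPM in the DIO livers and at 1.19, 1.34, 0.712, 2.80 and 1.53 CPM in the DIO + DHA livers. The groups were separate by a narrow margin, since DIO + DHA replicate 5 at 2.80 CPM nearly reached DIO replicate 4. The Log2FC was −1.23 (SE 0.37, adjusted p = 0.016). The call was lost in 6 of 19 alternatives, and without DIO replicate 5 the Log2FC was −1.0 (adjusted p = 0.191).

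Cd63 (ENSMUSG00000025351.15; chromosome 10, 128736858 to 128748691, plus strand), a tetraspanin of late endosomes and exosomes that most cell types make, changed little in size. It was at 41.0, 48.9 and 51.5 CPM in the DIO livers and at 37.8, 38.8, 38.1, 36.7 and 35.7 CPM in the DIO + DHA livers. The DIO + DHA livers were close together, all just below the lowest DIO liver. The mean was 47.1 ± 5.51 CPM (SD, n = 3) against 37.4 ± 1.21 CPM (SD, n = 5), or 79.4% of the DIO mean (Log2FC −0.37, SE 0.10, adjusted p = 0.00905). Without DIO replicate 4 or 5 the call was lost (adjusted p = 0.0645 and 0.127). A processed copy of the gene, Cd63-ps, had 64 counts over all libraries, and reads that fit both equally were left out of the counts.

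Among the secreted proteins, Lgals3 (ENSMUSG00000050335.18; chromosome 14, 47605208 to 47623617, plus strand) had the smallest p of the 10. It encodes a galectin that activated macrophages release and that also binds TREM2. Its level was 104, 104 and 98.6 CPM in the DIO livers and 45.5, 34.4, 50.6, 44.9 and 40.1 CPM in the DIO + DHA livers. The highest DIO + DHA liver, at 50.6 CPM, was far below the lowest DIO liver. The mean was 102 ± 3.10 CPM (SD, n = 3) against 43.1 ± 6.09 CPM (SD, n = 5), a 2.36-fold fall (Log2FC −1.24, SE 0.10, adjusted p = 3.5e-16).

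Mmp12 (ENSMUSG00000049723.15; chromosome 9, 7344381 to 7369499, plus strand) encodes macrophage elastase, a matrix-degrading protease. It was at 5.05, 5.58 and 4.43 CPM in the DIO livers and at 0.990, 1.00, 2.14, 2.80 and 0.872 CPM in the DIO + DHA livers. The groups did not overlap, and the DIO + DHA livers fell into 3 near 1 CPM and 2 above 2 CPM. The Log2FC was −1.69 (SE 0.35, 95% confidence interval −2.40 to −0.99, adjusted p = 2.1e-04), on 65 and 30 counts.

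Spp1 (ENSMUSG00000029304.15; chromosome 5, 104582984 to 104588916, plus strand) encodes osteopontin, a secreted phosphoprotein of lipid-associated macrophages that bile duct cells also make. It was at 57.8, 51.1 and 54.2 CPM in the DIO livers and at 47.9, 54.8, 57.7, 48.4 and 53.6 CPM in the DIO + DHA livers. The groups overlapped almost fully. The Log2FC was −0.04 (SE 0.10, 95% confidence interval −0.24 to 0.15, adjusted p = 0.844), an interval that leaves out a fall of the size seen in Lgals3. Of the exon bases of Spp1, 18.8% overlap Gm42793, which had 0 counts in all libraries, and reads in that overlap were not counted for either gene.

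Cd9 (ENSMUSG00000030342.9; chromosome 6, 125437229 to 125471754, minus strand), a surface tetraspanin of many cell types, was the 1 member with a higher mean in the DIO + DHA group. It was at 10.7, 9.72 and 12.9 CPM in the DIO livers and at 12.7, 21.4, 12.5, 12.9 and 13.3 CPM in the DIO + DHA livers. The groups overlapped, and DIO + DHA replicate 2 stood far above the other 4. The Log2FC was 0.35 (SE 0.18, 95% confidence interval −0.02 to 0.72, adjusted p = 0.234). Without that liver it was 0.19 (adjusted p = 0.587). Of the exon bases of Cd9, 10.7% overlap the antisense gene Gm26728, which had 0 counts in all libraries.

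Of the 10 members, 8 were lower at an adjusted p under 0.05, where 7.28% of all tested genes were. In 8 of the 10 every DIO + DHA liver was below every DIO liver, as in 8.88% of all tested genes. Counting only the 9 members that passed the minimum in both groups, 7 were lower. None of the 10 was higher by edgeR, by DESeq2 or by limma-voom, where edgeR called 7.89% of all tested genes higher and 9.55% had every DIO + DHA liver above every DIO liver. At an unadjusted p under 0.05, 0 of the 10 and 1620 of the 12412 tested genes were higher. DESeq2 called 6 members lower, without Gpnmb and Itgax, and limma-voom at an adjusted p under 0.05 called 8. Without DIO replicate 5 edgeR called 5, without Gpnmb, Itgax and Cd63. The median Log2FC of the 10 was −1.23, against 0.00 for all tested genes.

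The general macrophage markers were lower in the DIO + DHA group too. Summed over the 19 general macrophage markers, the level was 961 to 1000 CPM in the DIO livers and 503 to 545 CPM in the DIO + DHA livers. That is a log2 ratio of −0.90, and its exact permutation p of 0.0179 is the smallest that the 3 and 5 livers allow (0.0250 after adjustment over 14 lists). Of these markers 17 of 19 fell, where 7.28% of all tested genes did. C1qb, a subunit of complement C1q (Log2FC −1.03), and Ctss, cathepsin S (Log2FC −1.08), had the smallest p. Lyz2, lysozyme, was among those that fell (Log2FC −0.72). Called Log2FC ran to −1.44, for Fcgr3, an Fc receptor named after its values were seen. Ms4a6c and Ptafr had Log2FC of −0.94 and −1.06 and did not pass. The 16 Kupffer cell genes summed to 631 to 723 and 403 to 429 CPM (log2 ratio −0.70, exact permutation p = 0.0179).

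To set the members against the macrophage RNA in the same liver, each library was scaled to its summed counts of the 19 markers and the whole table was tested again. On that scale the median of all genes moved up by 0.89, with 81.1% of all tested genes higher and 0.532% lower. Of the 10 members 4 were lower, 3 were higher and 3 did not pass. Trem2, Cd68, Lgals3 and Mmp12 were lower, and so fell further than the macrophage markers together.

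Trem2 stood at 5.60, 9.18 and 6.61 counts per 1000 macrophage marker counts in the DIO livers. In the DIO + DHA livers it stood at 5.08, 1.25, 4.25, 2.71 and 4.12. The groups did not overlap on this scale either, though DIO + DHA replicate 1 nearly reached DIO replicate 1. The relative Log2FC was −1.03 (SE 0.31, 95% confidence interval −1.64 to −0.42, adjusted p = 0.00196), a further 2.04-fold below the markers. It passed in all 12 alternatives, with adjusted p from 6.2e-04 to 0.0482.

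Tyrobp, by contrast, moved with the markers. It stood at 58.8, 55.1 and 65.1 counts per 1000 in the DIO livers and at 49.7, 53.0, 53.8, 53.3 and 64.3 in the DIO + DHA livers, and the groups overlapped. Its relative Log2FC was −0.12 (SE 0.11, 95% confidence interval −0.35 to 0.10, adjusted p = 0.311). With the Kupffer cell genes as the scale instead it was −0.32 and passed (adjusted p = 0.0131). The receptor thus fell further than the markers while no such difference was detected for its adaptor. The difference between the 2 genes was not tested.

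Cd68 had a relative Log2FC of −0.47 (SE 0.16, adjusted p = 0.00608), at 28.4 ± 3.59 counts per 1000 (SD, n = 3) in the DIO livers and 20.2 ± 3.49 (SD, n = 5) in the DIO + DHA livers, without overlap. Lgals3 had −0.34 (SE 0.10, adjusted p = 0.00196), with overlap between 99.6 to 108 and 64.3 to 101 counts per 1000. Mmp12 had −0.81 (SE 0.36, adjusted p = 0.033), and its call was lost in 5 of 12 alternatives, among them without DIO replicate 4 (adjusted p = 0.149) and without DIO + DHA replicate 1, 2 or 6 (adjusted p = 0.112, 0.0685 and 0.100). Gpnmb (relative Log2FC −0.34, adjusted p = 0.396) and Itgax (−1.08, adjusted p = 0.0808) did not pass.

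Spp1, Cd9 and Cd63 were higher on this scale, as most genes were. Spp1 had a relative Log2FC of 0.85 (SE 0.11, adjusted p = 3.7e-11), close to the shift of 0.89 of all genes. Cd9 had 1.24 (SE 0.18, adjusted p = 6.3e-09) and Cd63 had 0.53 (SE 0.11, adjusted p = 2.1e-05).

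**Figure D2:**
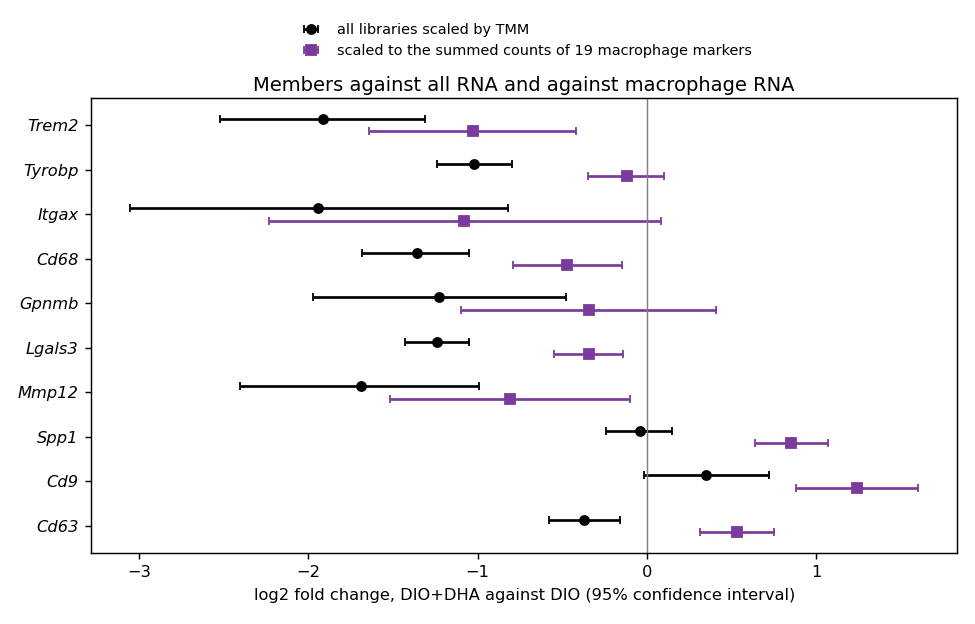
Log2FC of the 10 genes, DIO + DHA against DIO, with 95% confidence intervals (horizontal axis, log2 scale), with libraries scaled by TMM (black) and to the summed counts of 19 macrophage markers (purple). Trem2 lies at −1.91 and −1.03, Tyrobp at −1.02 and −0.12, and Spp1 moves from −0.04 to 0.85.

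The other genes of TREM2 signalling were lower or did not pass. Of 23 genes listed, 22 were tested and 11 fell, where 7.28% of all tested genes did, with a median Log2FC of −0.41. DESeq2 called 4 lower and limma-voom 12. By edgeR 0 were higher, also at an unadjusted p under 0.05, and DESeq2 and limma-voom called 0 higher as well. The 11 include Vav3, which passed the minimum only through the DIO group (adjusted p = 0.0498) and is named after its values were seen. Apoe, which encodes a lipoprotein component that TREM2 binds and that hepatocytes are known to make, averaged 51600 ± 3080 CPM (SD, n = 3) in DIO livers and 46000 ± 1610 CPM (SD, n = 5) in DIO + DHA livers, with a Log2FC of −0.16 (adjusted p = 0.0271). Clu, clusterin, another lipoprotein ligand, had a Log2FC of −0.33 (adjusted p = 2.4e-05).

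Ms4a6d, of a family of membrane proteins linked to TREM2 release, fell with a Log2FC of −1.29 (SE 0.29, adjusted p = 6.4e-04). Syk, the kinase that TYROBP recruits, and Hcst (DAP10), the partner adaptor, are named after their values were seen. Syk averaged 5.12 ± 1.09 CPM (SD, n = 3) in DIO livers and 2.97 ± 0.448 CPM (SD, n = 5) in DIO + DHA livers, with a Log2FC of −0.83 (adjusted p = 0.0367). Hcst had a Log2FC of −1.13 (adjusted p = 0.00464). Scaled to macrophage marker counts, as above, 10 of the 22 were higher, where 81.1% of all tested genes were. None was lower on that scale (0 of 22, where 0.532% of all tested genes were), so none was shown to fall further than the markers.

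The further genes of the lipid-associated state moved in both directions. Of 40 listed, 34 were tested, 9 fell and 5 rose, with a median Log2FC of −0.14. These were 26.5% and 14.7% of the tested genes of the list, against 7.28% and 7.89% of all tested genes. The 5 that rose were Lpl, lipoprotein lipase (35.4 ± 4.28 CPM, SD, n = 3, against 77.1 ± 8.55 CPM, SD, n = 5, Log2FC 1.15, adjusted p = 4.6e-13), the fatty acid binding proteins Fabp4 (Log2FC 1.31) and Fabp5 (0.96), Lipa, the lysosomal acid lipase (0.63), and Plin2, the lipid droplet coat protein (0.51). Those that fell were Ctss, Ctsb, Acp5, Clec7a, Axl, Lgals1, Capg, Gdf15 and Abcg1, a sterol exporter, and those other than Ctss and Lgals1 are named after their values were seen. Ctsb, cathepsin B, had a Log2FC of −0.42 (adjusted p = 7.6e-07). DESeq2 called 7 lower and 6 higher. Creg1, a lysosomal glycoprotein, was at 1120 and 1260 CPM and did not pass (adjusted p = 0.0589).

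Adipocyte markers summed to 10.1 to 12.6 CPM in the DIO livers and 45.3 to 70.1 CPM in the DIO + DHA livers. All 7 had counts, and Adipoq, Cfd and Retn rose while Lipe did not pass and Plin1, Lep and Slc36a2 were at 0 in the DIO livers. Fabp4 and Lpl are also adipocyte and muscle genes. What part adipocyte or muscle RNA had in the rise of these genes was not tested. Nor was the part of hepatocytes, squamous epithelium or other cells in the rise of Fabp5, Lipa and Plin2.

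The listed receptors and partners were lower in the DIO + DHA group where they passed. Of 12 genes, all tested, 4 fell, where 7.28% of all tested genes did (median Log2FC −0.42). By edgeR, by DESeq2, by limma-voom or at an unadjusted p under 0.05, 0 rose, where edgeR called 7.89% of all tested genes higher. DESeq2 called 2 lower and limma-voom 3. Gas6, the ligand of the efferocytosis receptors AXL and MERTK, averaged 68.2 ± 4.61 CPM (SD, n = 3) in DIO livers and 30.4 ± 3.54 CPM (SD, n = 5) in DIO + DHA livers, a Log2FC of −1.15 (SE 0.11, adjusted p = 2.8e-13). The osteopontin receptor subunits Itga9 and Itgb3 had Log2FC of −0.60 (adjusted p = 0.00543) and −0.79 (adjusted p = 0.0383). Cd81, a tetraspanin partner, had −0.21 (adjusted p = 0.046), and Lgals3bp, the galectin-binding glycoprotein, had −0.21 and did not pass (adjusted p = 0.0912).

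Of 17 transcription factors linked to this macrophage state, 15 were tested and 5 fell, where 7.28% of all tested genes did (median Log2FC −0.40). By edgeR, DESeq2 or limma-voom, also at an unadjusted p under 0.05, 0 rose, where edgeR called 7.89% of all tested genes higher. DESeq2 called 3 lower and limma-voom 5. Cebpb, a factor of inflammatory macrophages and of hepatocytes, averaged 194 ± 5.0 CPM (SD, n = 3) in DIO livers and 93.9 ± 5.41 CPM (SD, n = 5) in DIO + DHA livers, with a Log2FC of −1.05 (SE 0.08, adjusted p = 5.4e-17). Spi1, which encodes PU.1, had −0.75 (adjusted p = 0.0246). Bhlhe40 had −0.48 and Nr1h2, the liver X receptor beta, −0.54. Rxra and Nr1h3 had −0.03 and −0.01 and did not pass.

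**Figure D3:**
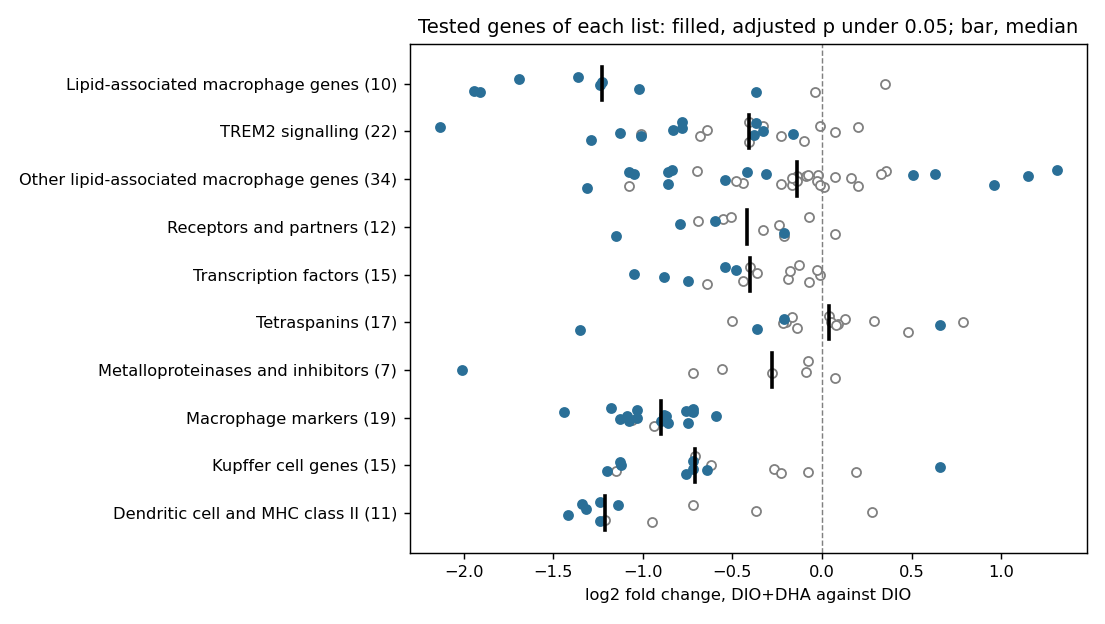
Log2FC of every tested gene of 10 lists (horizontal axis), with the number tested in parentheses, filled where the adjusted p was under 0.05, and the median as a bar. The lipid-associated macrophage genes have a median of −1.23, the macrophage markers −0.90 and the other lipid-associated genes −0.14, and the dashed line is the median of all tested genes.

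Within the members' own gene families the direction was mixed. Of 18 other tetraspanins 17 were tested: Tspan4, a protein of migrasomes, fell (Log2FC −1.35, adjusted p = 7.7e-06), as did Cd151 (−0.36) and Cd81, and Tspan31 rose (0.66, adjusted p = 0.0038), around a median of 0.04. By edgeR 17.6% of the tested tetraspanins were lower and 5.88% higher, against 7.28% and 7.89% of all tested genes. DESeq2 called 1 lower and 1 higher. Tspan12 had 0.09 and did not pass. Among 4 tested galectins Lgals1 fell (Log2FC −0.54, adjusted p = 2.2e-05), while Lgals9 and Lgals8 had 0.12 and 0.21 without passing.

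Among 7 tested metalloproteinases and inhibitors Timp1, an inhibitor, was called lower (Log2FC −2.01, SE 0.67, adjusted p = 0.0302) but passed the minimum only through the DIO group and was not called by DESeq2. Mmp14, a membrane-bound member, had −0.08 and did not pass. Of 4 tested genes of the beta2 integrins and their ligands, Itgb2, the shared beta chain that pairs with CD11c, fell (Log2FC −0.94, adjusted p = 0.0107), as did Itgal (−0.58, adjusted p = 0.0274), but DESeq2 called neither. Itgam and Icam1 had −0.03 and −0.48 and did not pass. Over all of these pathway and family lists, 113 of 138 genes were tested. Of these 35 fell (31.0%) and 6 rose (5.31%), against 7.28% and 7.89% of all tested genes. Scaled to macrophage marker counts, 68 of the 113 were higher and 1, Gas6, was lower. Of all tested genes 81.1% and 0.532% were. Without DIO replicate 4 or 5, 23 and 16 fell.

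Trem2 sits in a cluster of related receptors, and 9 genes of that kind, itself included, lie within 250000 bases of it on either side. Treml4, a neighbour that can also pair with TYROBP, averaged 8.14 ± 0.976 CPM (SD, n = 3) in DIO livers and 4.67 ± 1.45 CPM (SD, n = 5) in DIO + DHA livers, with a Log2FC of −0.79 (adjusted p = 0.016), and was not called by DESeq2. Trem6l, the nearest of them upstream of Trem2 and named after its values were seen, had a Log2FC of −1.19 (adjusted p = 0.0102), but DIO replicate 1 at 1.68 CPM lay within the DIO + DHA range of 1.07 to 2.10 CPM. On the macrophage scale neither passed (relative Log2FC 0.10 and −0.31). Trem1, Trem3, Trem4, Treml1 and Treml2 had 0 to 9 counts in any library, and Trem5 had 0 counts in all.

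**Figure D4:**
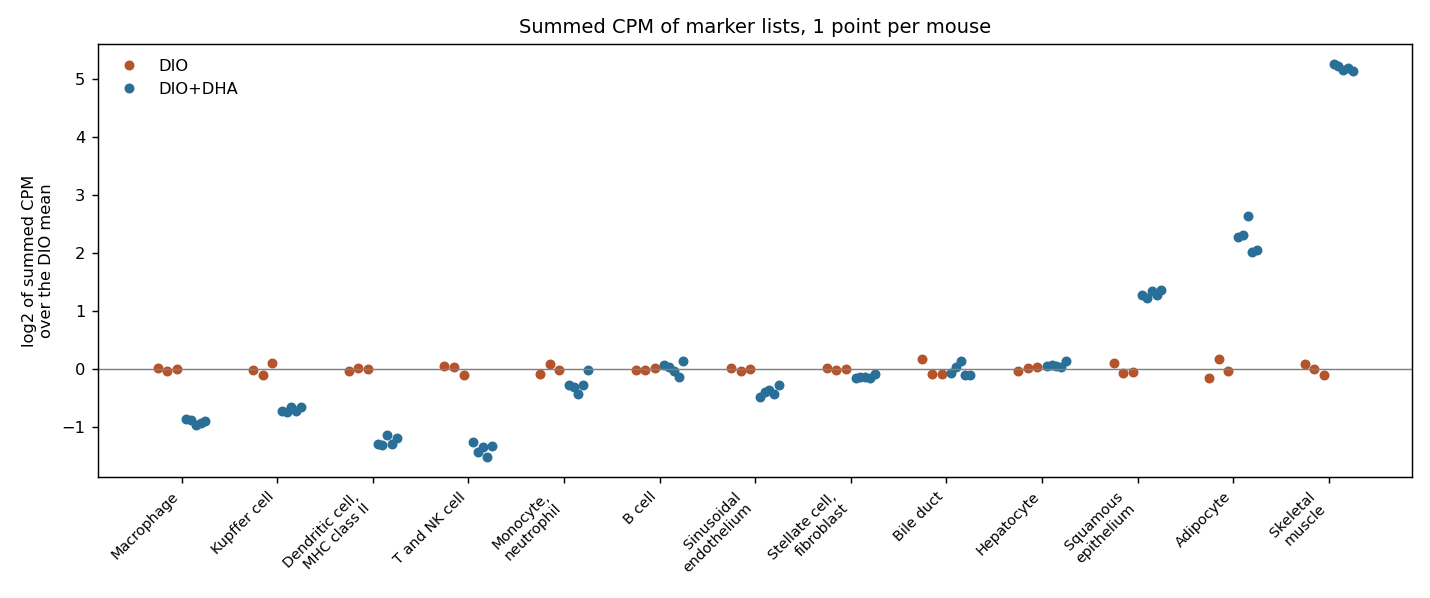
Summed CPM of cell type marker lists as log2 of the ratio to the DIO mean (vertical axis), 1 point per mouse, DIO in brown and DIO + DHA in blue. The macrophage, Kupffer cell, dendritic and T and NK cell sums lie lower in every DIO + DHA liver, while the adipocyte, squamous and skeletal muscle sums lie higher.

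The members are not made by macrophages alone, and the markers of other sources are set beside them. Genes of dendritic cells and MHC class II, the cells that share Itgax, summed to 580 to 598 CPM in the DIO livers and 240 to 270 CPM in the DIO + DHA livers (log2 ratio −1.23, exact permutation p = 0.0179), with H2-Ab1 at a Log2FC of −1.24. T and NK cell genes summed to 152 to 170 and 56.8 to 68.3 CPM. Monocyte and neutrophil genes summed to 40.4 to 45.5 and 31.7 to 42.1 CPM, with overlap (exact permutation p = 0.0714). Sinusoidal endothelial genes summed to 307 to 320 and 225 to 260 CPM (log2 ratio −0.38, exact permutation p = 0.0179), and stellate cell and fibroblast genes to 353 to 361 and 320 to 339 CPM (log2 ratio −0.13, exact permutation p = 0.0179). B cell genes summed to 80.8 to 82.7 and 74.3 to 90.0 CPM, with overlap. A list of 15 housekeeping genes was lower as well, at 3980 to 4340 and 3540 to 3970 CPM (log2 ratio −0.18, exact permutation p = 0.0179).

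Bile duct markers, which bear on Spp1, Cd9 and Lgals3, summed to 189 to 226 and 187 to 222 CPM (log2 ratio −0.02, exact permutation p = 0.714). Cldn4 was at 0 in all livers, and Tm4sf4, which hepatocytes share, made up 183 of the mean of 201 CPM in the DIO livers. The squamous epithelium sum, of a tissue that makes Lgals3 and Cd9, was 47.1 to 53.3 CPM in the DIO livers and 116 to 127 CPM in the DIO + DHA livers. Of the squamous genes 9 rose, and Krt17 was at 0 in all livers and Krt5, Krt14 and Trp63 in all DIO livers. The part of these cells in the members' values was not tested. The Kupffer cell list held 7 genes that fell, among them Cd5l (Log2FC −1.12), Il18bp (−1.20) and Clec4f (−0.72), and 1 that rose, Marco, a scavenger receptor (0.66, adjusted p = 1.1e-04). These were 46.7% and 6.67% of its 15 tested genes, against 7.28% and 7.89% of all tested genes.

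The genes most like Trem2 over the 8 livers were found by Pearson's r of log2 CPM, among the 6213 genes whose mean reached 10 CPM. They were Arpc1b (r = 0.980), a subunit of the actin-nucleating ARP2/3 complex, Pygl (0.980), liver glycogen phosphorylase, Sema4a (0.978), a semaphorin, and Hspb8 (0.978), a small heat shock protein. Cyba (0.977), a subunit of the phagocyte NADPH oxidase, Nipsnap1 (0.974), Gclm (0.973), a subunit of the enzyme that starts glutathione synthesis, and Kxd1 (0.970) followed. Their own Log2FC were small, from −0.63 for Cyba to −0.15 for Kxd1, and Kxd1 did not pass the test (adjusted p = 0.323). Trem2 itself had 2 to 14 counts in each DIO + DHA library. Its coefficient of variation there was 44.3%, where counting error alone gives 38.3%. In the DIO livers these were 23.6% and 20.9%. The spread of Trem2 within each group was thus little above counting error, which limits every r with it.

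Among the members the likeness to Trem2 was greatest for Lgals3 (r = 0.94, rank 24 of 6213) and Itgax (0.92). It was lower for Tyrobp (0.85), Cd63 (0.78), Mmp12 (0.77), Cd68 (0.73) and Gpnmb (0.62), near 0 for Spp1 (0.07) and negative for Cd9 (−0.81). All these values share the group difference and the depth of 8 libraries and are a description only. With the group means taken out, Lgals3 kept an r of 0.69 with Trem2, Tyrobp had −0.08 and Cd68 −0.87. These values rest on a spread of Trem2 little above its counting error.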

How the data were processed

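RNA of 8 livers was measured, 1 library per mouse, with 3 DIO and 5 DIO + DHA mice assigned by the sample titles. The authors purified poly(A) RNA, made cDNA enriched for 3′ ends, checked reads with FastQC 0.11.8, trimmed them, aligned them to GRCm39 with STAR 2.7.9a and counted exonic reads with featureCounts 1.6.0 on GENCODE mouse release 33. The deposited values are raw counts per gene, unstranded, from unique alignments, without reads shared by overlapping genes. The sources used here do not say if molecular identifiers were collapsed, so errors cover counting and the spread between mice only. Because reads come from 3′ ends, levels were not compared between genes, other than to choose the genes named from each list.

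The 8 tables, with 56884 genes each, were joined on the Ensembl identifier, and names came from GENCODE mouse release 39 (56323 matched). Of 360 list symbols 358 matched. Genes with at least 5 counts in at least 50% of the libraries of a group (12412 genes) were tested with edgeR 4.0.16 in R 4.3.3 (TMM, robust quasi-likelihood F test, Benjamini-Hochberg over all tested genes, adjusted p under 0.05). A second fit scaled each library to its summed counts of 19 macrophage markers. Summed CPM of marker lists was compared by a two-sided exact permutation test over 56 arrangements of the libraries. Likeness to Trem2 used log2 CPM (prior count 2). Promoter windows were read from GRCm39 at the canonical starts of GENCODE release 39. The tests were tried on simulated counts first.

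The members and lists were chosen with earlier results of these data known. Beside the members, the 2 genes with the smallest p and the 2 with the largest mean CPM of each list were named, and every gene of a count of 5 or fewer, except 1 gene that is not reported here. Alternatives covered normalization, limma-voom (limma 3.58.1), DESeq2 1.42.0, filters, thresholds, a replicate block and leaving out each library.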

Additional observations from a re-analysis of the deposited data

Results flagged for a closer look

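In 24 sets of 5 DIO + DHA values, 1 liver was looked for that stood far from the other 4, and 2 were found, where chance alone gives about 1 in 20. Tyrobp was at 34.0 CPM in DIO + DHA replicate 6, and its gap to the next liver was 0.803 of the range of the group. Cd9 was at 21.4 CPM in DIO + DHA replicate 2, with a gap of 0.907 of the range. The same liver had the lowest Trem2 (0.669 CPM) and the lowest Lgals3 (34.4 CPM) of all 8.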

How the results depend on the processing

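Of 309 values of single members under alternatives, 284 kept their direction and their side of the threshold, 23 lost the call, 2 gained it and 0 changed sign. Trem2, Tyrobp, Cd68, Lgals3 and Mmp12 passed in all 19 alternatives on the TMM scale. The number of members lower, 8, was 5 with limma-voom at a log-odds B above 0 and 5 with a replicate block, and 5 to 8 when each library was left out in turn, with 5 without DIO replicate 5. The number of members higher stayed at 0 in each. Relative to the macrophage markers, 4 lower became 2 with a replicate block (Lgals3 lost its call at −0.20, adjusted p = 0.0779, and Mmp12 at −0.36, adjusted p = 0.421), 6 with the Kupffer cell list as the scale and 3 to 4 with a library left out, while 3 were higher throughout. The 35 lower genes of the pathway and family lists were 17 with DESeq2, 13 with a B above 0, 18 at an adjusted p under 0.01, 23 with a replicate block, 22 without the 3 shallowest libraries (chosen after seeing the data), and 16 to 32 with a library left out (23 without DIO replicate 4, 16 without DIO replicate 5), and 5 to 7 were higher with a library left out. The monocyte and neutrophil sum had a log2 ratio of −0.28 (exact permutation p = 0.0179) with library size alone, against −0.26 (p = 0.0714). The cause of these differences was not tested. Over all genes, 904 lower and 979 higher calls became 601 and 716 with DESeq2, 396 and 463 with a B above 0, 568 and 657 at an adjusted p under 0.01, and 962 and 901 with library size alone. Same-numbered livers of the 2 groups did not deviate together (r = −0.0133, −0.0135 and −0.0112), and none of the 3 DIO livers correlated best with its own number. These values gave no sign that the numbers 1, 4 and 5 pair the mice. With 3 shared numbers and r so near 0, they cannot exclude it. The members with under 100 counts in a group, Trem2, Gpnmb, Itgax and Mmp12, are limited by depth.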
